A study of Ovis aries with 18 samples.

Results

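The genes described here are 10 enzymes of ceramide synthesis and turnover, read from raw gene counts of 12 pools of sheep embryos. They were listed by name: the ceramide synthases CERS1, CERS2, CERS4, CERS5 and CERS6, the serine palmitoyltransferase subunits SPTLC1 and SPTLC2, the desaturase DEGS1, the acid ceramidase ASAH1 and the glucosylceramide synthase UGCG. CERS1 was chosen by its higher counts in embryos of methionine-fed sires, so its difference between the diets is given as a description with no test. Of the 10 genes, 9 were among the 20092 genes of the table and all 9 passed the filter of at least 15 counts in more than 3 pools. DEGS1 was not analysed here.

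The study asked whether methionine fed to young Polypay rams changes sperm DNA methylation and the transcriptome of their embryos. Control rams (Ram410, Ram423 and Ram444) ate a basal diet. Methionine rams (Ram424, Ram498 and Ram511) ate the same diet topped with 1.5 g (0.22%) of methionine in a rumen-protected form, which reaches the intestine intact. Meals weighed 0.45 kg, and feeding lasted 77 days in lambs that were on average 88 days old at the start. Semen was taken 1 month and ewes were bred 2 months after feeding ended, and superovulated Polypay ewes (4 mated to methionine rams, 3 to control rams) were flushed 8 days after the rams were introduced. The embryos were early to hatched blastocysts (stages 5 to 8), pooled by 5 before RNA extraction and whole transcriptome amplification. Each control ram sired 2 pools. Ram424 sired 4 of the 6 methionine pools, and Ram498 and Ram511 sired 1 each, so diet, sire and ewe are tied together in these pools. A pool is named here by its ram and its number, so that Embryo424_2 is the second pool of Ram424.

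Ceramides are the core of all sphingolipids. Serine palmitoyltransferase joins serine to palmitoyl-CoA in the endoplasmic reticulum, ceramide synthases then attach a fatty acid to the sphingoid base, and a desaturase completes the molecule. Each ceramide synthase prefers fatty acids of certain lengths, so the set that a cell expresses shapes which ceramides it holds. From ceramide the cell makes sphingomyelin and glycosphingolipids for its membranes, and ceramidases release sphingosine, the precursor of the signalling lipid sphingosine 1-phosphate. In blastocysts, the outer trophectoderm is a polarized epithelium, a kind of tissue whose apical membrane is rich in sphingolipids.

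Counts summed to between 1017847 and 2398589 per pool, and levels are given in CPM, counts scaled to a common library total, after normalization by the trimmed mean of M-values (TMM). CPM is not corrected for the length of a transcript, so levels are compared between pools and never between genes. Control pool Embryo444_2 and methionine pool Embryo511_1 stood apart, with median Spearman correlations with the other pools of 0.58 and 0.60 over all tested genes, against pairwise values of 0.806 to 0.955 among the other 10. Trophectoderm markers (6 of the 8 listed were in the table) summed to 195 and 128 CPM in these pools and to 5124 to 14328 CPM in the other 10. Epiblast markers (4 of 6 in the table) summed to 69.4 and 133 CPM against 167 to 569 CPM, and hypoblast markers (4 of 6 in the table) to 233 and 276 CPM against 417 to 952 CPM. POU5F1 (14.2 and 39.7 CPM) and GATA6 (38.9 and 66.4 CPM) were low there, but not every gene of these lists was. PRDM14 had its highest levels in these pools (43.9 and 83.3 CPM, against 14.5 to 37.9 CPM). GATA4 was highest in Embryo511_1 (94.2 CPM) and PDGFRA in Embryo444_2 (166 CPM). In pool Embryo511_1 the oocyte markers (5 of 7 in the table) summed to 719 CPM, against 95.6 to 157 CPM in the other 11 pools, of which ZP3 gave 410 CPM and ZP2 205 CPM while ZAR1 was at 0. The sperm markers (4 of 5 in the table) summed to 1066 CPM there against 20 to 106 CPM, of which TNP1 alone gave 1008 CPM, while TNP2 was at 0 and AKAP4 and ODF1 lay within the range of the other pools. In a pool of whole embryos, fewer cells of a type and less RNA per cell cannot be told apart. Pools Embryo424_1 and Embryo424_2 were the most alike pair (Spearman 0.955) and differed by a chi-square of 3.31 per degree of freedom, against 8.45 to 26.9 for the other pairs of pools of a ram. A chi-square treats amplified reads as independent molecules, so it does not tell whether these are separate samples. The labels list them as separate pools, they were counted so, and values with the pair summed are given as well.

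CERS1, the synthase known for stearoyl-ceramide in brain and muscle, was low in all control pools and ranged widely in methionine pools. Its levels in the control pools were 7.53 and 7.08 CPM (Ram410), 7.14 and 7.06 CPM (Ram423), and 7.81 and 14.9 CPM (Ram444). In the methionine pools they were 32.0, 111, 79.1 and 9.34 CPM (Ram424), 12.0 CPM (Ram498) and 40.6 CPM (Ram511). The diets overlapped, since pools Embryo424_4 and Embryo498_1 lay below control pool Embryo444_2, and the other 4 methionine pools lay above all control pools. The means were 8.58 ± 3.09 CPM (SD, n = 6) in control pools and 47.3 ± 40.1 CPM (SD, n = 6) in methionine pools, a fitted log2 fold change of 2.45 (SE 0.54). The SEs of CERS1, here and below, come from the contrast on which it was chosen, so they are no measure of support. The reads were few: the control pools held 10, 10, 10, 11, 11 and 21 counts and the methionine pools 67, 196, 112, 19, 20 and 41 counts. CERS1 reached 15 counts in all 6 methionine pools and in 1 control pool, so it passed the filter mainly through the group in which it was chosen to be high.

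**Figure D1:**
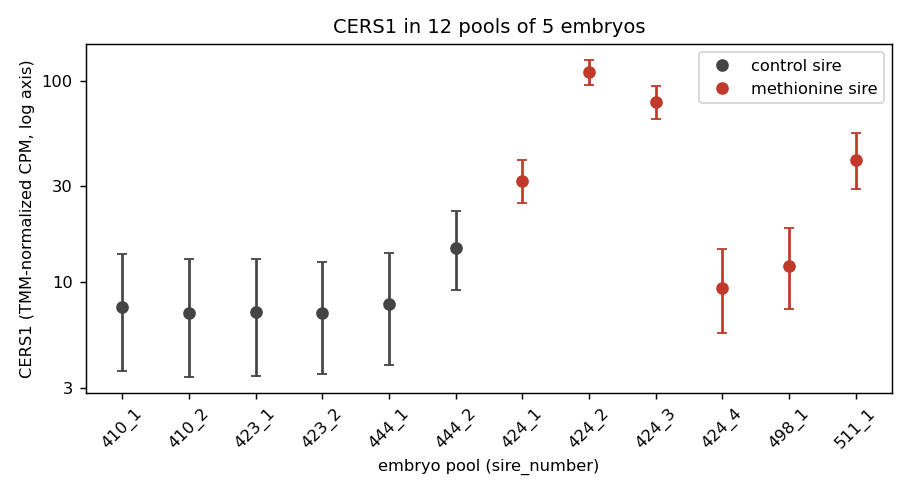
CERS1 level (TMM-normalized CPM, log axis) in each of the 12 embryo pools, coloured by the diet of the sire, with exact 95% Poisson intervals that cover counting error only. The 4 pools of Ram424 span 9.34 to 111 CPM, and Embryo424_4 and Embryo498_1 fall within the interval of control pool Embryo444_2.

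The spread of CERS1 among pools of Ram424 was wider than the gap between the diet means. Within Ram424, the highest CERS1 level was 11.9-fold the lowest, and the exact 95% Poisson intervals of these pools, 96.0 to 128 CPM for Embryo424_2 and 5.62 to 14.6 CPM for Embryo424_4, did not meet. Pool Embryo498_1 had an interval of 7.36 to 18.6 CPM and control pool Embryo444_2 one of 9.20 to 22.7 CPM, and these overlapped almost wholly. The intervals cover counting error only and not the amplification of RNA from a few embryos. Averaged per ram, CERS1 was at 7.30, 7.10 and 11.3 CPM in embryos of Ram410, Ram423 and Ram444, and at 57.8, 12.0 and 40.6 CPM in those of Ram424, Ram498 and Ram511. The ram means did not overlap, but those of Ram444 and Ram498 differed by less than the gap between the pools of Ram444. The log2 fold change was 2.10 (SE 0.57) with counts summed per ram, 1.76 (SE 0.86) with the ram as a random effect and 2.70 (SE 0.58) without pools Embryo444_2 and Embryo511_1.

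Reads of a neighbouring gene can add to a count, so the genes beside CERS1 were examined. In the gene order of the ARS-UI_Ramb_v3.0 assembly, HOMER3, DDX49 and COPE lie on one side and UPF1 and COMP on the other, and GDF1, a growth factor of the TGF-beta family, overlaps CERS1. GDF1 held 259 counts in control pool Embryo410_1 and 0 to 6 counts in each other pool, below the filter. CERS1 was at 7.53 CPM in pool Embryo410_1, close to the other control pools, and the methionine pools with the highest CERS1 had 3 or 4 counts of GDF1. The other 5 neighbours had log2 fold changes of -0.37 (HOMER3) to 0.98 (COMP), with edgeR FDR of 0.713 to 0.975. COMP was at 59.5 CPM in Embryo511_1 and at 3.01 to 16.2 CPM in the other pools. For UPF1, a helicase of nonsense-mediated decay, the log2 fold change was 0.10 (SE 0.36). The counting took only reads that overlap a single gene, and its strand setting is not given in the sources used here. Whether reads of a neighbour add to the CERS1 count was not tested.

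The genes most like CERS1 over the 12 pools were ranked by Spearman correlation of log2 CPM. LIMS2, an adaptor of focal adhesions, came first with a rho of 0.937, followed by the adhesion molecule IGLON5 (0.930), the phospholyase ETNPPL (0.902), the ATPase FIGNL1 (0.874), and the actin regulator ENAH and the exocyst subunit EXOC1 (each 0.867). Without pools Embryo444_2 and Embryo511_1 the values were 0.927, 0.939, 0.939, 0.891, 0.818 and 0.842 in the same order. IGLON5 reached 147 CPM in pool Embryo424_2, where CERS1 was also highest, and 9.62 to 31.1 CPM in control pools. LIMS2 was at 7.70 to 13.5 CPM in control pools and 12.6 to 36.7 CPM in methionine pools. These genes were picked from all 16488 for their likeness, share the libraries and their depth with CERS1, and were not tested for it. CERS1 was itself chosen on diet, so nothing is read from their levels by diet. Among the members, the strongest correlations with CERS1 were 0.385 (SPTLC2) and -0.462 (CERS4) over the 12 pools. Without Embryo444_2 and Embryo511_1 the order changed, with 0.673 for SPTLC1, 0.624 for CERS2, 0.539 for UGCG, 0.430 for SPTLC2 and -0.539 for CERS4.

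For diet, the quasi-likelihood test of edgeR called no gene among 16488 at an FDR under 0.05 (percent called 0), and at an unadjusted p under 0.05 it found 1306 genes (7.92%). Of the 8 members other than CERS1, none was called and 1, SPTLC1, was under that unadjusted level. With the likelihood-ratio test in edgeR, the test the study used, 5 genes (0.0303%) passed, and with DESeq2 16 (0.097%). CERS1 was in both sets, from which nothing is read because it was chosen on this contrast, and no other member was. The study reported more genes with the likelihood-ratio test at this FDR limit, CERS1 among them. It kept a larger set of genes under the same stated filter. Over all genes, 58 (0.352%) had every pool of one diet above every pool of the other, and no member did.

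The serine palmitoyltransferase subunits catalyse the first and rate-limiting step of the pathway. SPTLC1, the structural subunit, was at 43.2 to 66.1 CPM in control pools (median 61.8) and at 55.5 to 118 CPM in methionine pools (median 80.6). The groups overlapped at one end only, since Embryo511_1 was the single methionine pool below the highest control pool. The means were 58.6 ± 9.22 and 85.0 ± 23.7 CPM (SD, n = 6 each), the log2 fold change was 0.54 (SE 0.23) and the edgeR FDR 0.608. An exact two-sided permutation test over the 924 assignments of pools, the smallest p of which is 0.00216, gave p = 0.0260 for SPTLC1, and over the 20 assignments of rams, with a smallest p of 0.1, it gave p = 0.4. The highest levels were in Embryo424_1 (118 CPM) and Embryo424_2 (106 CPM), and without the pools of Ram424 the log2 fold change was 0.10 (SE 0.33).

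SPTLC2, a catalytic subunit, was at 125 to 229 CPM in control pools (median 186) and 145 to 240 CPM in methionine pools (median 207). The ranges overlapped over most of their length. The log2 fold change was 0.18 (SE 0.25) at an edgeR FDR of 0.865, and the exact permutation test over pools gave p = 0.281. Pool Embryo444_2 had the lowest level of both subunits among the 12 pools.

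**Figure D2:**
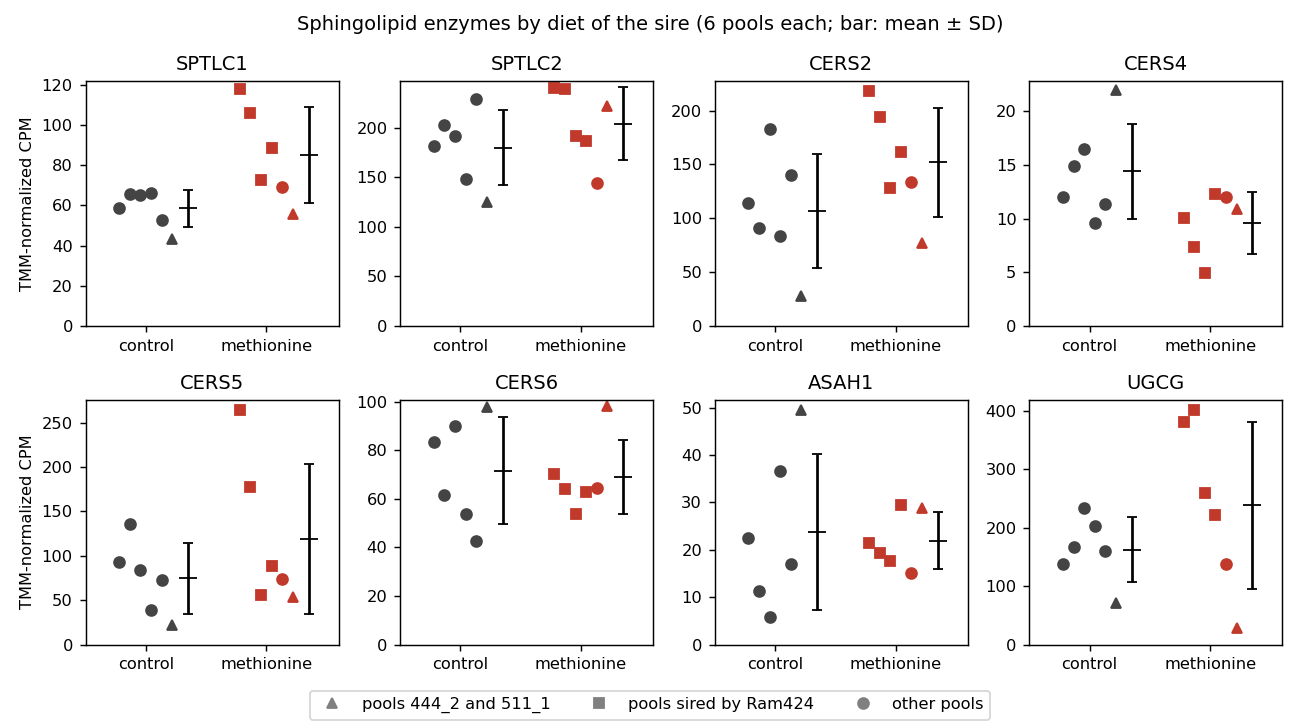
Levels of 8 sphingolipid enzymes (TMM-normalized CPM, axes from 0) in the 6 control and 6 methionine pools, with the mean ± SD beside each group. Triangles mark pools Embryo444_2 and Embryo511_1, and squares the pools of Ram424, in which the highest levels of SPTLC1, SPTLC2, CERS2, CERS5 and UGCG were found.

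None of the other ceramide synthases was called for diet, and whether they differ from CERS1 was not tested. CERS2, which makes ceramides with very long fatty acids, was at 28.3 to 183 CPM in control pools (median 103) and 77.3 to 218 CPM in methionine pools (median 147). Its means of 107 ± 52.7 and 152 ± 50.3 CPM (SD, n = 6 each) differed by less than 1 SD, with a log2 fold change of 0.51 (SE 0.36), an edgeR FDR of 0.740 and p = 0.167 in the exact permutation test over pools. Pools Embryo444_2 (28.3 CPM) and Embryo511_1 (77.3 CPM) were the lowest of the 12. Without the pools of Ram424 the log2 fold change of CERS2 was -0.0058 (SE 0.54).

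CERS4, a synthase of long and very long chains, had lower mean and median levels in methionine pools, at 4.94 to 12.3 CPM (median 10.5) against 9.62 to 21.9 CPM (median 13.5) in control pools. The groups overlapped between 9.62 and 12.3 CPM. Its means were 14.4 ± 4.45 CPM in control and 9.60 ± 2.89 CPM in methionine pools (SD, n = 6 each), a log2 fold change of -0.58 (SE 0.34) at an edgeR FDR of 0.695. The exact permutation test gave p = 0.0498 over pools and p = 0.1 over rams, the smallest value 3 rams against 3 allow. CERS4 reached 15 counts in 6 control pools and in 3 methionine pools, so it passed the filter mainly through the group in which it was higher. Its p-values are therefore given as a description. CERS4 held 7 to 31 counts per pool, so its levels are among the least precise, and control pool Embryo444_2 had the highest.

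CERS5 and CERS6 both favour palmitoyl-CoA. CERS5 was at 21.9 to 135 CPM in control pools (median 78.7) and 53.5 to 264 CPM in methionine pools (median 81.0), and its medians lay closer together than its means of 74.4 ± 40.3 and 119 ± 84.4 CPM (SD, n = 6 each). Only Embryo424_1 (264 CPM) and Embryo424_2 (177 CPM) lay above the control range. The log2 fold change was 0.68 (SE 0.45) at an edgeR FDR of 0.723, p = 0.290 in the exact permutation test over pools, and it was -0.21 (SE 0.55) without the pools of Ram424. CERS6 was at 42.6 to 97.7 CPM in control and 53.6 to 98.1 CPM in methionine pools, with a log2 fold change of -0.06 (SE 0.25), an edgeR FDR of 0.968 and p = 0.827 in the exact permutation test over pools. The highest levels of CERS6 were in Embryo511_1 (98.1 CPM) and Embryo444_2 (97.7 CPM).

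ASAH1, the acid ceramidase that splits ceramide in lysosomes, was at 5.71 to 49.6 CPM in control pools (median 19.8) and 15.1 to 29.5 CPM in methionine pools (median 20.4). All methionine pools lay within the control range. The log2 fold change was -0.12 (SE 0.42), the edgeR FDR 0.961 and the exact permutation p over pools 0.805. Control pool Embryo444_2 had the highest level, and without pools Embryo444_2 and Embryo511_1 the log2 fold change was 0.13 (SE 0.40).

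UGCG adds glucose to ceramide, the first step to most glycosphingolipids. Its levels were 71.5 to 234 CPM in control pools (median 163) and 27.8 to 401 CPM in methionine pools (median 241). The methionine pools held both the lowest value, in Embryo511_1, and the 3 highest, in Embryo424_2 (401 CPM), Embryo424_1 (381 CPM) and Embryo424_3 (260 CPM). The means were 162 ± 56.0 and 238 ± 143 CPM (SD, n = 6 each), the log2 fold change was 0.56 (SE 0.47) with an edgeR FDR of 0.772, and the exact permutation test over pools gave p = 0.249. Without Embryo444_2 and Embryo511_1 the log2 fold change was 0.62 (SE 0.27) at an edgeR FDR of 0.387. Without the pools of Ram424 it was -0.95 (SE 0.59), and with the ram as a random effect -0.23 (SE 0.60), and without Embryo511_1 alone it was 0.79 (SE 0.34).

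With pools Embryo444_2 and Embryo511_1 left out, which was tried after the data were seen, edgeR called 1 of 16161 genes (0.00619%), not a member or another sphingolipid gene, and 11.9% had an unadjusted p under 0.05. Among the 8 members, SPTLC1 and UGCG did. SPTLC1 then had a log2 fold change of 0.55 (SE 0.20) and the lowest FDR of the 8 members in any fit, 0.335. For the others the log2 fold changes were 0.06 (SE 0.20) for SPTLC2, 0.44 (SE 0.24) for CERS2, -0.46 (SE 0.35) for CERS4, 0.62 (SE 0.39) for CERS5 and -0.08 (SE 0.23) for CERS6.

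Several members varied together across pools. The genes of a pool share its library and depth, so these correlations are given as a description. The strongest Spearman correlations over the 12 pools were those of SPTLC1 with UGCG (0.811), CERS2 with UGCG (0.776) and CERS2 with CERS5 (0.727), which were 0.733, 0.624 and 0.539 over the 10 pools without Embryo444_2 and Embryo511_1. The most negative was -0.497, between CERS4 and SPTLC1. In 5 of the 9 members (SPTLC1, SPTLC2, CERS2, CERS5 and UGCG) pools Embryo424_1 and Embryo424_2 had the 2 highest levels of the 12, as they had for 9.03% of all tested genes. Of the 59 sphingolipid genes tested, 11 (18.6%) had this order, among them the ceramide transfer protein gene COL4A3BP and the lysosomal galactosylceramidase gene GALC. These pools share a sire and were the most alike in their whole profile, and the part of that likeness in the order was not tested. With Embryo424_1 and Embryo424_2 summed to 1 sample, the log2 fold changes were 0.45 (SE 0.24) for SPTLC1, 0.42 (SE 0.45) for CERS5 and 0.35 (SE 0.48) for UGCG.

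Several sphingolipid genes separated the pools that stood apart from the other 10. UGCG was at 71.5 CPM in Embryo444_2 and 27.8 CPM in Embryo511_1, and at 138 to 401 CPM in the other 10 pools. Pools Embryo444_2 and Embryo511_1 were the 2 lowest of the 12 for UGCG, CERS2 and 10 other sphingolipid genes, 12 of 59 (20.3%), against 12.9% of all tested genes. They were the 2 highest for CERS6 and 7 others, 8 of 59 (13.6%), against 8.15% of all tested genes.

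The genes that follow were named after their values were seen. GM2A, the activator of ganglioside breakdown, was at 19.8 and 127 CPM in Embryo444_2 and Embryo511_1 and at 493 to 1014 CPM in the other 10 pools. PSAP, the precursor of the saposins that present sphingolipids to lysosomal hydrolases, was at 27.6 and 191 CPM against 351 to 850 CPM. The order was the same for B4GALT5, which makes lactosylceramide (120 and 98.1 against 471 to 966 CPM), for the phosphodiesterase SMPDL3A (21.9 and 48.6 against 204 to 487 CPM) and for the glycolipid transfer protein GLTP (10.6 and 55.5 against 98.2 to 264 CPM). These low levels ran beside those of the trophectoderm marker KRT8, at 116 and 42.6 CPM in these pools and at 3893 to 11862 CPM in the others, and beside the low sums of epiblast and hypoblast markers given above. Single genes of those lists, such as PRDM14, were not low. The part of any cell type in the low levels of the sphingolipid genes was not tested.

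**Figure D3:**
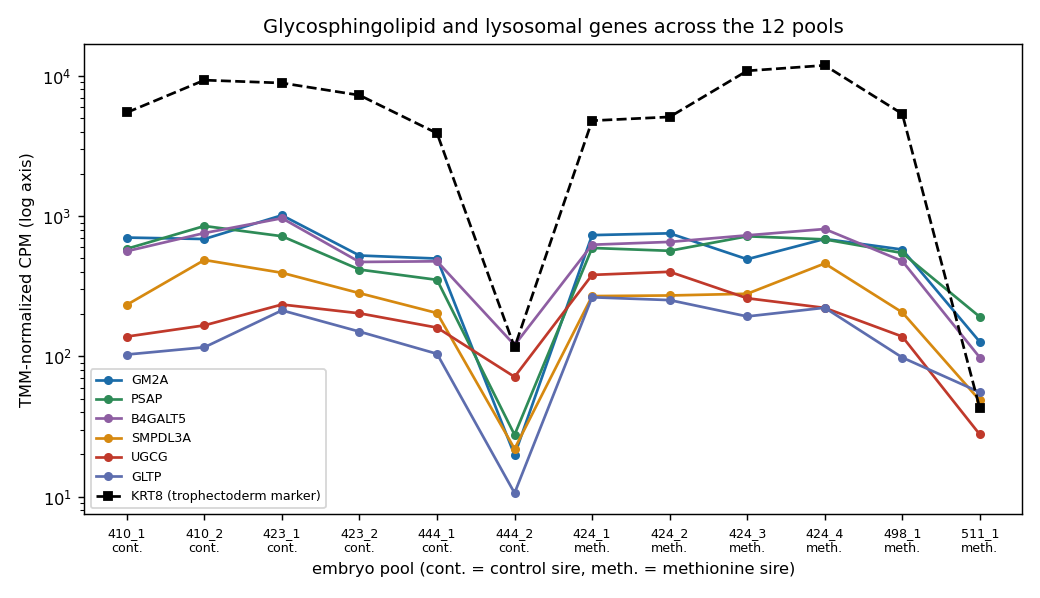
Levels (TMM-normalized CPM, log axis) of 6 sphingolipid genes in the 12 pools, with the trophectoderm marker KRT8 as a dashed line. All 7 lines drop in control pool Embryo444_2 and methionine pool Embryo511_1. In the other pools the diets overlap, with the highest levels of UGCG and GLTP in pools of Ram424.

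Not all sphingolipid genes followed this order. CERS3, the synthase of ultra-long-chain ceramides known from skin and testis, was at 147 CPM in Embryo511_1 and at 29.1 to 49.6 CPM in the other 11 pools. The sphingosine kinase gene SPHK1 was at 78.3 CPM in Embryo511_1 and at 0.706 to 7.83 CPM elsewhere, below the filter. This pool also held the high levels of TNP1, ZP3 and ZP2 given above, with TNP2 and ZAR1 at 0, and PTPRC, a marker of blood cells, was at 254 CPM there against 40.2 to 121 CPM in the other pools. Whether RNA of other cells adds to these levels was not tested.

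Across the whole pathway, the quasi-likelihood test of edgeR called no gene for diet, as over the table as a whole. The list held 67 genes in 7 groups by role, of which 61 were in the table and 6 were not analysed here. Of the 58 tested besides CERS1, 32 were higher and 26 lower in methionine pools, with a median log2 fold change of 0.02, against 0.01 over all tested genes, of which 50.5% were higher. None passed the edgeR test at an FDR under 0.05, and neither the likelihood-ratio test nor DESeq2 called one. An unadjusted p under 0.05 was found for 5 of the 58 (8.62%), close to the 7.92% over all genes, and without pools Embryo444_2 and Embryo511_1 for 8 of 57 (14.0%), beside 11.9%.

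**Figure D4:**
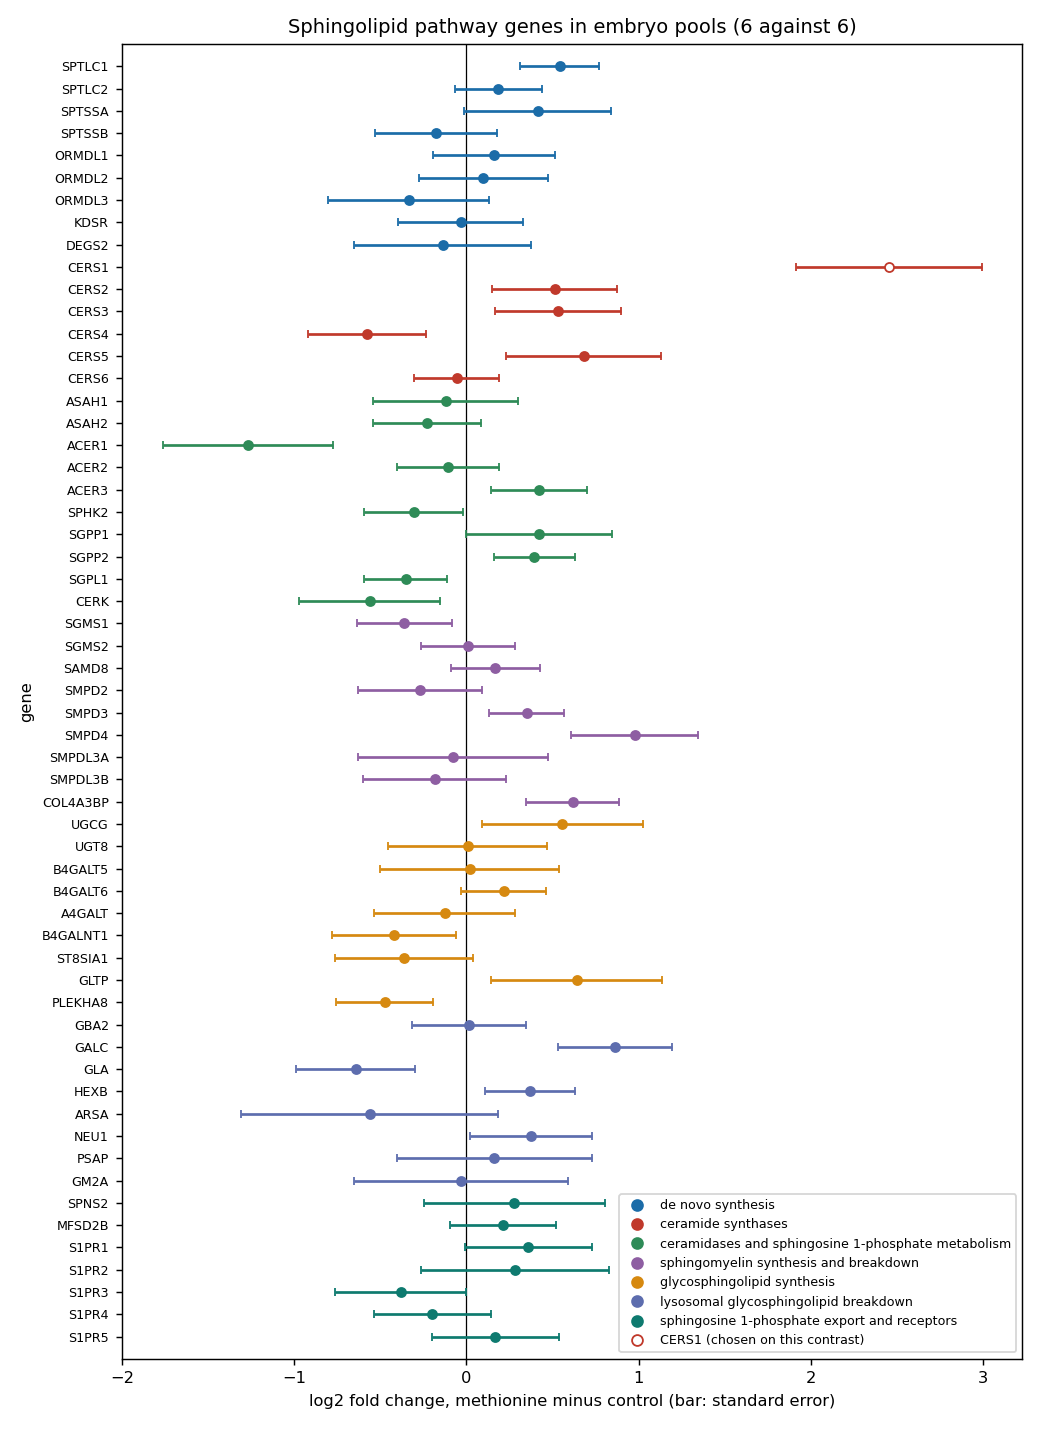
Fitted log2 fold changes (methionine minus control, edgeR) with standard errors for 58 of the 59 sphingolipid genes tested, coloured by role. Apart from CERS1 (open point, chosen on this contrast), values lie between -1.27 (ACER1) and 0.98 (SMPD4) on both sides of 0.

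By role, 5 of 9 genes of de novo synthesis were higher in methionine pools (median log2 fold change 0.10) and 3 of 5 ceramide synthases besides CERS1 (median 0.51). Of the ceramidases and enzymes of sphingosine 1-phosphate, 3 of 10 were higher (median -0.17). In sphingomyelin metabolism 5 of 9 were higher (median 0.01), in glycosphingolipid synthesis 5 of 9 (median 0.01), in lysosomal breakdown 6 of 9 (median 0.16), and among exporters and receptors of sphingosine 1-phosphate 5 of 7 (median 0.21).

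Besides SPTLC1, the genes with an unadjusted p under 0.05 were ACER1, SMPD4, COL4A3BP and GALC. ACER1, an alkaline ceramidase, was at 11.5 to 82.9 CPM in control pools and 6.23 to 19.8 CPM in methionine pools, with a log2 fold change of -1.27 (SE 0.50) and an edgeR FDR of 0.585. The 82.9 CPM were those of pool Embryo423_1, and the next control pool was at 20.6 CPM. Without Embryo423_1 the log2 fold change of ACER1 was -0.54 (SE 0.38), with an edgeR FDR of 0.699. COL4A3BP, which carries ceramide from the endoplasmic reticulum to the Golgi, was at 90.7 to 151 CPM in control and 117 to 252 CPM in methionine pools, a log2 fold change of 0.62 (SE 0.27) at an edgeR FDR of 0.608. GALC, which breaks down galactosylceramide, was at 54.5 to 110 CPM in control and 72.4 to 258 CPM in methionine pools, a log2 fold change of 0.86 (SE 0.33) at an edgeR FDR of 0.585. The diets overlapped for each of them. Exact permutation tests over pools gave p = 0.0628 for ACER1, 0.0390 for COL4A3BP and 0.0693 for GALC, and over rams 0.1, 0.1 and 0.6. These genes were named for a low edgeR p on the same contrast and pools, so the permutation values are no separate support. Without Embryo444_2 and Embryo511_1 the log2 fold changes were -1.55 (SE 0.51) for ACER1, 0.75 (SE 0.25) for COL4A3BP, 0.93 (SE 0.30) for GALC and 0.85 (SE 0.31) for SMPD4, with edgeR FDR of 0.280 (GALC) to 0.321 (SMPD4). With the pools of Ram424 left out, they were -0.93 (SE 0.76) for ACER1 and 0.23 (SE 0.36) for COL4A3BP. In the same fit GALC was at 0.03 (SE 0.36) and SMPD4 at 0.35 (SE 0.57).

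SMPD4, a neutral sphingomyelinase that releases ceramide from sphingomyelin, was at 8.49 to 46.4 CPM in control pools and 33.7 to 75.3 CPM in methionine pools. The 4 pools of Ram424 lay above all control pools, and Embryo498_1 and Embryo511_1 lay within the control range. The log2 fold change was 0.98 (SE 0.37) at an edgeR FDR of 0.585, and the exact permutation test gave p = 0.0195 over pools and p = 0.3 over rams. SMPD4 too was named for its low edgeR p on this contrast, so the permutation values are a description. Averaged per ram, SMPD4 was at 21.0, 46.0 and 20.6 CPM for Ram410, Ram423 and Ram444 and at 67.6, 33.7 and 40.6 CPM for Ram424, Ram498 and Ram511, and the means of Ram498 and Ram511 lay below that of Ram423.

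SMPD4 was the only gene of the pathway list that the annotation of the study names beside a cytosine called as differentially methylated in the sperm of the same rams. The share of all genes named in this way was not computed, so nothing about the pathway is read from this count. The cytosine at SMPD4, on chromosome 17 at position 81855034 of Oar_rambouillet_v1.0 (+ strand), lies by that annotation in the promoter of SMPD4, taken as the 10 kb upstream of its start, and in an exon and 3' UTR of LOC101108295. It was methylated in 20 of 23, 15 of 18 and 19 of 24 reads in Ram410, Ram423 and Ram444 (87.0%, 83.3% and 79.2%). In Ram424, Ram498 and Ram511 it was methylated in 9 of 22, 4 of 16 and 9 of 25 reads (40.9%, 25.0% and 36.0%). The mean was 34.0% ± 8.15 in methionine rams and 83.2% ± 3.90 in control rams (SD, n = 3 each), a difference of -49.2 points that is a description, because the site was selected on these rams.

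Neighbouring cytosines were not used for that choice, although close ones can lie on the same reads. Those within 40 bp lie in pairs on both strands of the same CpGs, so they are not separate sites. The one at 1 bp is the opposite strand of the called CpG. Over the 13 within 40 bp, the mean level was 63.4% ± 7.76 in methionine and 89.3% ± 1.10 in control rams (SD, n = 3 each), -25.9 points, and at 12 of them all methionine rams lay below all control rams. Of all 1850625 cytosines in the table, 1.35% had this order, and of the 211906 with a mean level of at least 50%, 3.98%. The 13 lie beside a site selected on the same rams, unlike cytosines at large, so their order is no separate support. Over the 19 cytosines at 377 to 721 bp the mean level was 81.3% ± 2.76 against 90.9% ± 2.06 (SD, n = 3 each), -9.61 points, with such a separation at 4. Over all 32 the levels were 76.3%, 71.7% and 74.1% in Ram424, Ram498 and Ram511 and 90.9%, 89.4% and 90.5% in Ram410, Ram423 and Ram444. The exact two-sided permutation test over the rams gave p = 0.1 for each of the 3 sets, the smallest p that 3 rams against 3 allow. The set of 32 contains the other sets, and all surround a site selected on this contrast, so these p-values are a description. No correlation of methylation with expression over rams is given here, because the rams fall into 2 groups by diet. The study did correlate called sperm cytosines with embryo expression, and SMPD4 is not among the genes it lists as highly correlated.

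**Figure D5:**
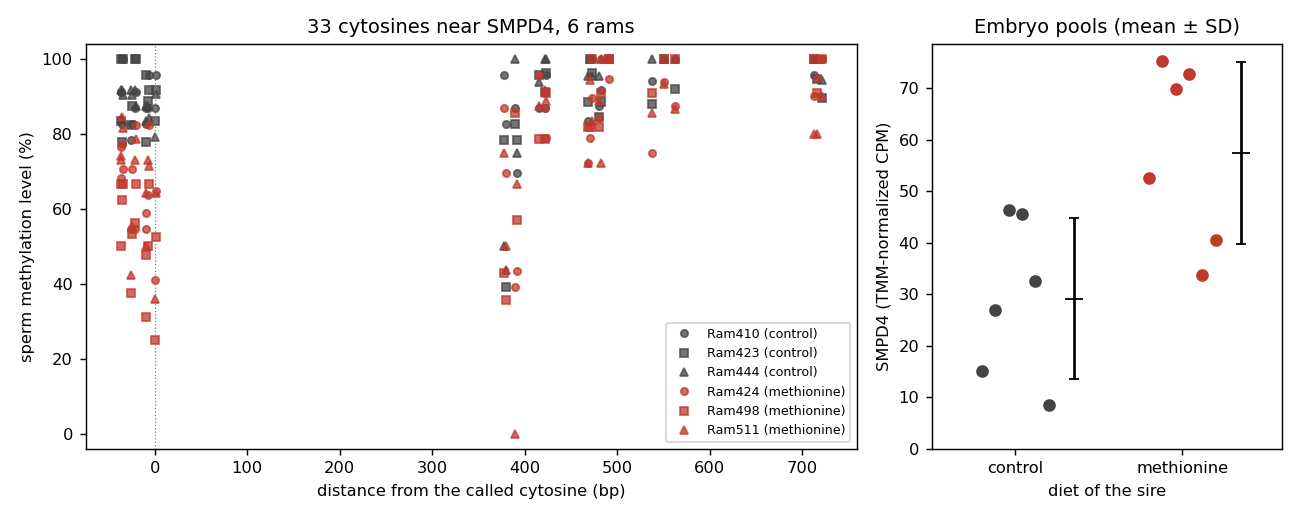
Left, sperm methylation level (%) of 33 cytosines near SMPD4 in each of 6 rams, against their distance in bp from the called cytosine at 0. Right, SMPD4 level (TMM-normalized CPM) in the 12 embryo pools by diet of the sire with mean ± SD. Methionine rams lie below control rams at most cytosines within 40 bp, and the 2 diets overlap at most sites farther away and in the embryo levels.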

How the data were processed

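RNA sequencing covered 12 pools of 5 embryos and RRBS, a bisulfite sequencing of CpG-rich fragments, the sperm of 6 rams. The authors trimmed RNA reads, aligned them to Oar_rambouillet_v1.0 with STAR and deposited raw counts per gene. For RRBS the authors used TrimGalore and Bismark, removed duplicates by molecular identifiers and deposited counts of methylated and unmethylated reads per cytosine, all with at least 10 reads per ram. Columns were matched to samples by name, and groups are the diets in the labels.

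A gene was kept if over 3 pools held 15 counts or more (16488 of 20092 genes). After TMM normalization, diets were compared by quasi-likelihood F tests (two-sided; edgeR 4.0.16, R 4.3.3) at a Benjamini-Hochberg FDR under 0.05. The SE of an edgeR log2 fold change is its absolute value over the square root of the F statistic. In limma it is the fold change over its t statistic. Each SE so restates the test. DESeq2 1.42.0 and limma 3.58.1 (consensus correlation of pools of a ram 0.263) served as alternatives, with other filters and normalization, counts summed per ram, and each pool and ram left out in turn. Added after the data were seen were fits without pools Embryo444_2 and Embryo511_1 and with Embryo424_1 and Embryo424_2 summed. Permutation tests were exact. Labels do not say which pools share a ewe, and pools of a ram share a sire, so p-values over pools are likely too small. Amplified reads carry no molecular identifiers, and totals of 1017847 to 2398589 counts limit the precision of low genes such as CERS1.

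The members, the lists and the tests were chosen with earlier results of these data known. Named were the members, pathway genes with an unadjusted p under 0.05, the 3 genes on each side of CERS1, any gene overlapping it, and the 5 genes most like it, with a tie at the fifth. The part of this rule on levels per kb was not applied, as transcript lengths were not used. Tests of cytosines near the members were not run, since the reference table is of another build, and it served for gene order only. Differences and folds are methionine against control. Other steps ran in Python 3.11.15 (scipy 1.17.1, pandas 2.3.3, numpy 2.4.6) with figures by matplotlib 3.10.9. The values of 1 gene of the pathway list are not reported here.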

Additional observations from a re-analysis of the deposited data

Results flagged for a closer look

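In the 13 genes tested in groups of 6 pools (26 groups), 3 groups held a pool farther from its neighbour than Dixon's 95% limit (a gap over 0.625 of the range), where chance flags about 1 in 20 groups. CERS1 was at 14.9 CPM in control pool Embryo444_2, with the next control pool at 7.81 CPM (gap 0.904 of the range). CERS6 was at 98.1 CPM in methionine pool Embryo511_1, with the next at 70.3 CPM (0.627). ACER1 was at 82.9 CPM in control pool Embryo423_1, with the next at 20.6 CPM (0.873). Pools Embryo444_2 and Embryo511_1 are those that stood apart in their whole profile, and pool Embryo423_1 is not.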

How the results depend on the processing

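Each count of genes and the fold changes of the members, ACER1, SMPD4, COL4A3BP and GALC were computed under 28 alternatives, of which 3 were added after the data were seen. Leaving out Ram498 or Ram511 is the same fit as leaving out its only pool. The tallies below count such a fit under both names. The neighbours of CERS1 were fitted once. The count of genes called over the whole table, 0, became 5 with the likelihood-ratio test, 16 with DESeq2 and 1 without pools Embryo444_2 and Embryo511_1, and stayed at 0 in the other 25. No sphingolipid gene besides CERS1 was called in any of them. The number of sphingolipid genes with an unadjusted p under 0.05, 5 at first and not always the same genes, was 1 with counts summed per ram (1.69%, beside 3.66% of all genes), 1 with the ram as a random effect (1.72%, beside 2.15%), 8 without pools Embryo444_2 and Embryo511_1 (14.0%, beside 11.9%) and 2 with Embryo424_1 and Embryo424_2 summed (3.45%, beside 5.86%), and leaving out a pool or a ram gave 2 (without Embryo424_1, or without Embryo424_2) to 9 (without Embryo511_1, 15.8% beside 11.8%). The 1 gene with counts summed per ram was SPHK1, and none of the 5 was under 0.05 there. Without Embryo444_1, without Embryo424_4, without Ram423 or without Ram444 it was 3. For the 8 members besides CERS1, 208 of 224 fold changes kept their direction and 16 reversed, all of genes not called. Reversed were CERS6 with counts summed per ram (log2 0.11) and with the ram as a random effect (0.017), ASAH1 with the ram as a random effect (0.13), without pools Embryo444_2 and Embryo511_1 (0.13) and with Embryo424_1 and Embryo424_2 summed as well (0.15), and UGCG with the ram as a random effect (-0.23). With a pool or ram left out, log2 fold changes ranged from -0.0058 to 0.73 for CERS2, from -0.21 to 1.12 for CERS5, from -0.18 to 0.18 for CERS6, from -0.33 to 0.23 for ASAH1 and from -0.95 to 0.84 for UGCG, and the lowest values of CERS2, CERS5 and UGCG were those without Ram424. The cause was not tested. ACER1 (-1.55 to -0.54), COL4A3BP (0.23 to 0.75), GALC (0.031 to 0.999) and SMPD4 (0.35 to 1.47) kept their direction, with the lowest values of the last 3 without Ram424. CERS1 ranged from 1.76 to 2.70 in 27 alternatives and fell below the filter without Ram424. The difference at the 32 cytosines near SMPD4, -16.2 points, ranged from -25.9 to -9.61 over 10 alternatives. The alternatives listed for cytosines over the whole table and near the members were not run. No paired analysis was possible because pools of the 2 diets share no replicate number. CERS1 and CERS4 held as few as 10 and 7 counts in a pool, which limits what can be seen of them.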
